A study of Homo sapiens with 112 samples.

Results

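LAPC4 cells were compared after 22 h with the synthetic androgen R1881 or with the solvent DMSO alone. LAPC4 is a human prostate cancer line that was derived from a lymph node metastasis and responds to androgens, and R1881 (methyltrienolone) is a potent androgen that cells hardly metabolize. All libraries of both treatments at this time point were taken, 10 with 1 nM R1881 and 7 with DMSO, which makes 17 of the 112 RNA-seq libraries of the study. The other libraries are LAPC4 at 8 h, LAPC4 with R1881 plus darolutamide, an antiandrogen drug, and the same treatments of VCaP, another prostate cancer line. In every group, the controls included, the cells had first been starved in medium with charcoal-stripped serum, which holds little steroid, so that the DMSO libraries show cells deprived of androgen. LAPC4 and VCaP are each a single cultured line, and nothing in the labels states which libraries came from separate cultures, so that the p-values measure the spread between these libraries, part of which may be technical. The comparison asks which transcripts a day of androgen changes in LAPC4 cells, and 18204 of the 58684 listed genes, those with at least 10 reads in at least 4 LAPC4 libraries, could be tested.

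Androgens change transcription through androgen response elements, imperfect inverted repeats in DNA that lie mostly at enhancers opened by FOXA1. In luminal cells of the prostate the androgen programme drives secretory products such as prostate-specific antigen, and in prostate cancer it also drives growth, which is why androgen deprivation is a main treatment of this disease. Transcripts that fall with androgen include genes repressed directly as well as genes that change later through other factors.

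The KLK3 promoter carries the classical element of this kind, and its sequence is shown because KLK3 is the best known androgen-induced gene and was the only one of the 26 named genes searched with a match of at most 2 mismatches to the consensus. The 250 bases upstream of the KLK3 start (RefSeq, GRCh38.p14, plus strand, chr19:50854665-50854914) read as follows, with the match to the consensus androgen response element, a 15-base inverted repeat with 12 fixed bases, in capitals.
KLK3: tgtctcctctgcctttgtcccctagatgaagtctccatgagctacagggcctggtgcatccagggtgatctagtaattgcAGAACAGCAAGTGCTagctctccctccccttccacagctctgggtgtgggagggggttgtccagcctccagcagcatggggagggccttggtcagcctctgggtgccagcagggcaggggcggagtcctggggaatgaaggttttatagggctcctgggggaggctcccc
The match begins at position -170 from the start and has 2 mismatches at the fixed bases. KLK2 holds a near copy (GGAACAGCAAGTGCT) at position -176 from its RefSeq start, with 3 mismatches. The bases searched for KLK2, chr19:50873189-50873438, lie inside the gene span given below and not before it. Of 27305 promoters of this length, searched on both strands, 1.19% held a match with at most 2 mismatches. Among the tested genes with a promoter in the table the share was 0.458% of 10701, and 3 of 146 genes called higher past 0.5 and 1 of 129 called lower past -0.5 on the log2 scale held one. Such a match is a description of letters and not evidence of binding.

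The libraries held 19330396 to 21885422 counted reads with DMSO and 15874797 to 23180161 with R1881, and mitochondrial transcripts took 1.45 to 1.92% of them. ERG, which VCaP expresses from a gene fusion, had 0 reads in all 17 libraries. The 10 luminal markers summed to 2690 to 3060 CPM (counts scaled to a common depth with TMM factors) with DMSO and to 2980 to 3520 CPM with R1881, and 5 of them were called higher. The 5 blood markers summed to at most 0.541 CPM, and 0 of them passed the filter. Of 4 basal, 5 fibroblast and 4 endothelial markers 3, 2 and 2 passed it. Basal KRT15 had 343 to 996 reads per library, KRT5 9 to 27 and KRT14 6 to 20. LUM and COL1A1 had 29 to 104 and 4 to 24 reads, and VWF and KDR 9 to 66 and 2 to 14. TP63, COL1A2, COL3A1, DCN, PECAM1 and CDH5 stayed at 9 reads or fewer in every library. Of the fibroblast and endothelial markers, LUM was lower and VWF was higher with R1881, and both are given with the low-expressed genes. Libraries differed in how their counts lean with the GC content of genes, from -0.18 to 0.101 log2 units per 10 points of GC with DMSO and from -0.157 to 0.211 with R1881. Over all 57 LAPC4 libraries, after each group's mean was taken off, the first principal component held 59.7% of the remaining variance. Its absolute correlation with this lean was 0.978. The differences between treatments and times are not part of that variance.

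R1881 changed 2418 genes in either direction (13.3% of those tested; edgeR quasi-likelihood test, Benjamini-Hochberg adjusted p under 0.05). Of these, 1244 rose (6.83%) and 1174 fell (6.45%). Most changes were small. The median log2 fold change was 0.23 over the genes that rose and -0.22 over those that fell, against 0.01 over all genes tested. Past a log2 fold change of 0.5 there were 234 rises and 197 falls, and past 1 there were 69 rises and 27 falls (96 genes, 0.527%). Among genes above the median expression level, 17 rises and 0 falls passed 1, and by edgeR at an unadjusted p under 0.05 and by DESeq2 there were also 0 falls.

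In bulk RNA a change in the cells that express a gene and a change in RNA per cell cannot be told apart. Each library's median correlation with the others of its group (log2 CPM) was 0.992 to 0.994 with DMSO and 0.99 to 0.993 with R1881. In 418 genes every R1881 library was above every DMSO library (2.3%), and 417 of them were called higher. In 280 genes every R1881 library was below every DMSO library (1.54%), and all of these were called lower. Protein-coding genes were called in 17.2% of 12468 cases and lncRNAs in 9.06% of 585. The number of calls varied with the covariates and libraries used. With each library's GC lean as a covariate 4065 genes were called (2230 higher, 1835 lower), without the 4 libraries at the ends of that lean 1151 were called higher and 718 lower, and with replicates 6 and above alone, which leaves 2 DMSO and 5 R1881 libraries, 863 were called. The median GC content was 47.6% for genes that rose, 43.2% for genes that fell and 47.5% for all genes tested.

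**Figure D1:**
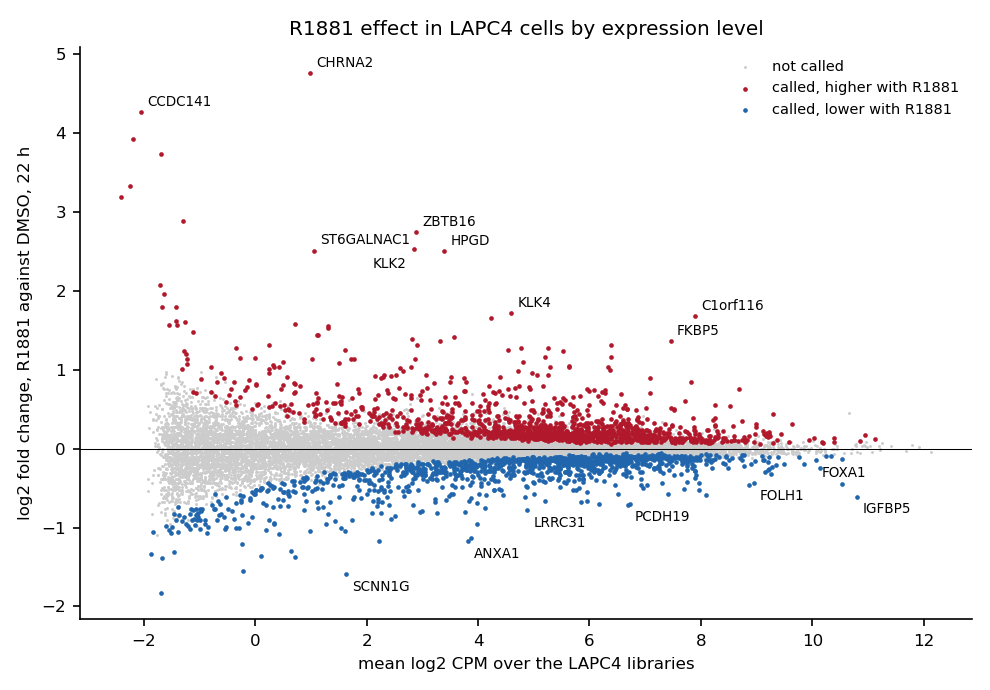
Log2 fold change of R1881 against DMSO at 22 h (vertical axis) against the mean log2 CPM over the LAPC4 libraries (horizontal axis) for the 18204 genes tested, with called rises in red, called falls in blue and other genes in grey. The largest folds, such as CHRNA2 at 4.76, belong to genes with a low mean over the LAPC4 libraries, and the called falls reach -1.83 while the called rises reach 4.76.

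The kallikreins all rose. Kallikreins are secreted serine proteases, and the genes for prostate-specific antigen (KLK3) and its activator KLK2 lie side by side on chromosome 19. Of 25 listed kallikrein and prostate secretory genes 9 could be tested. Of these, 6 rose (66.7% against 6.83% of all genes) and 2 fell (22.2% against 6.45%). Their median log2 fold change was 0.82. All 5 tested kallikreins were among the rises, and in each of them every R1881 library was above every DMSO library, as in 2.3% of all genes.

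KLK2 (chr19:50861568-50880567) was at 4.1 CPM in the lowest, 4.72 in the median and 5.85 in the highest DMSO library, and at 22.5, 27.7 and 33.8 CPM with R1881. That is a 5.78-fold rise (log2 fold change 2.53, SE 0.112, adjusted p = 6.81e-26). KLK3 (chr19:50854915-50860764), whose promoter is shown above, went from 12.7, 14.5 and 16 CPM to 35.8, 45.2 and 53.1 CPM, a 3.15-fold rise (log2 fold change 1.65, SE 0.0799, adjusted p = 3.18e-24). KLK4 (chr19:50906351-50911395), a kallikrein also known from tooth enamel, rose 3.28-fold from 15.3, 19.7 and 24.4 CPM to 49.7, 61.1 and 85.1 CPM. The groups did not overlap in any of these genes. KLK1, the tissue kallikrein, and KLK15 rose by 0.82 and 1.80 on the log2 scale, KLK15 from a median of 4 reads per DMSO library to 14 with R1881. The sequences of KLK2 and KLK3 are much alike, and reads that fit both could have been split or dropped by the counting.

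Other secretory products did not move as a block. AZGP1, a zinc-binding glycoprotein of seminal fluid, rose 1.48-fold, from a median of 9.69 to 13.9 CPM. ACPP, the prostatic acid phosphatase, fell in every R1881 library below the lowest DMSO library, from 29.6, 33.6 and 36.3 CPM to 21.1, 23.7 and 27.3 CPM (log2 fold change -0.47, SE 0.0462, adjusted p = 3.32e-12). MSMB, the beta-microseminoprotein, fell by 0.69 on the log2 scale from a median of 1.2 to 0.739 CPM, and only 5 of the 10 R1881 libraries were below the lowest DMSO library.

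Above the median expression level, the 12 largest rises were KLK4, C1orf116, KLK3, FKBP5, ENDOD1, MAP1B, HOMER2, FSTL1, SLC45A3, RAB3B, PEX10 and KRT15, from 1.72 down to 1.10 on the log2 scale. In all 12 genes every R1881 library lay above every DMSO library, as in 2.3% of all genes. They were picked by the size of their change in these same libraries, which in itself favours this. C1orf116 (chr1:207018522-207032756), whose product is also called specifically androgen-regulated gene protein, had the smallest adjusted p of all genes named. Its DMSO libraries were at 148, 164 and 170 CPM and its R1881 libraries at 488, 520 and 531 CPM, a 3.2-fold rise (SE 0.0268, adjusted p = 1.67e-47).

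FKBP5 (chr6:35573585-35728583) encodes a co-chaperone of steroid receptors and is a feedback gene of several of them. It rose 2.58-fold, from 117, 123 and 132 CPM to 300, 321 and 335 CPM (adjusted p = 9.83e-36). ENDOD1 (chr11:95089846-95132645), an endonuclease-domain protein, rose 2.47-fold from 55.2, 66.2 and 67.2 CPM to 146, 158 and 170 CPM. MAP1B, a microtubule-associated protein best known from neurons, rose 2.42-fold and HOMER2, a scaffold protein of glutamate receptor signalling, rose by the same fold. HOMER2P1, a processed pseudogene of HOMER2, was also higher (log2 fold change 1.24, from a median of 6 to 10.5 reads), and reads of both copies may not have been told apart.

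FSTL1, a secreted follistatin-like glycoprotein, rose 2.38-fold, from 16.7, 20 and 21.6 CPM to 41.8, 45.6 and 52.4 CPM. SLC45A3, the gene of the prostate marker prostein, rose 2.37-fold from a median of 34.8 to 79.9 CPM, and RAB3B, a GTPase of regulated secretion, rose 2.24-fold from 68.7 to 157 CPM. PEX10, a peroxisome assembly factor, rose 2.24-fold as well. KRT15, a keratin of basal epithelial cells, rose 2.14-fold from 17.6, 20.3 and 24.1 CPM to 35, 44.8 and 50 CPM.

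**Figure D2:**
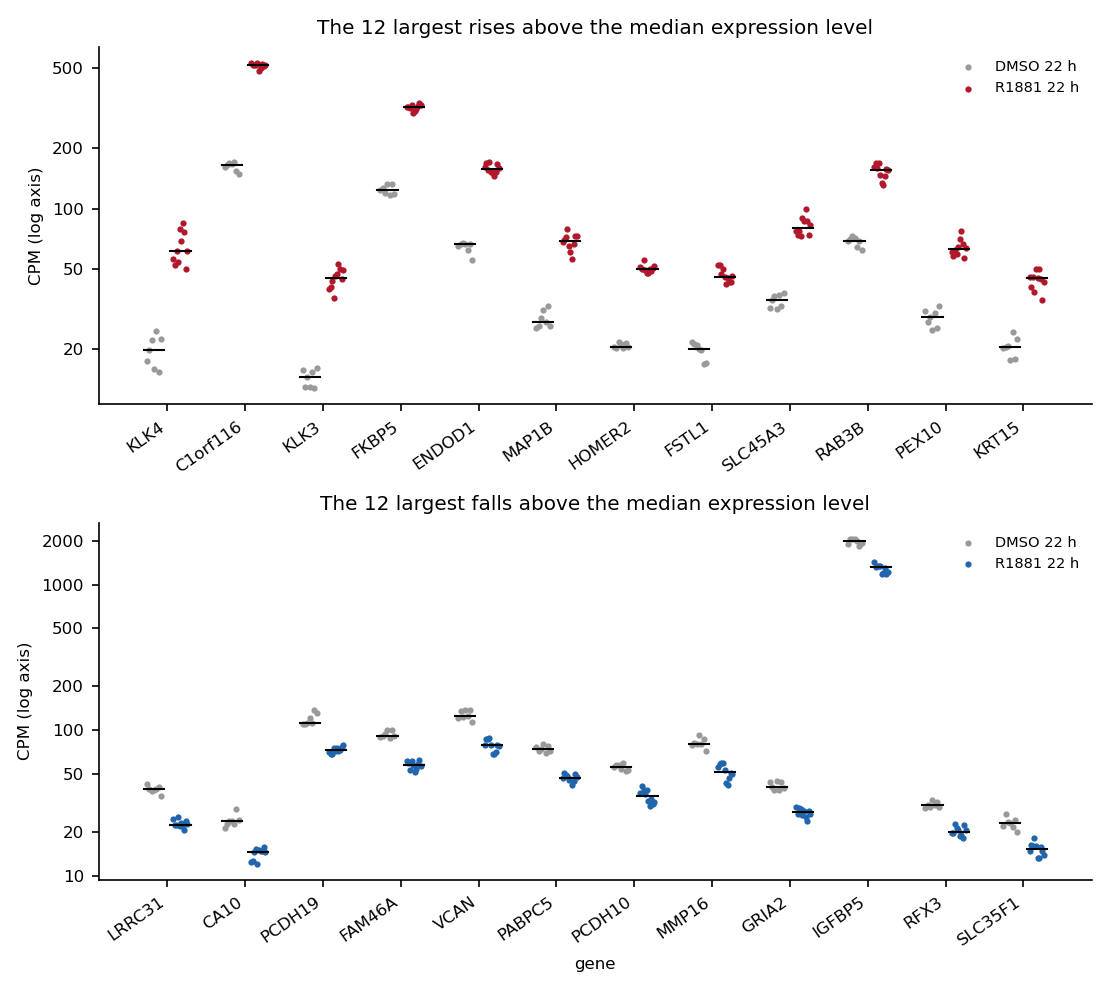
CPM on a log axis in each of the 7 DMSO libraries (grey) and 10 R1881 libraries (coloured) at 22 h for the 12 largest rises (top) and the 12 largest falls (bottom) above the median expression level, with black lines at the medians. In all 24 genes the R1881 points lie wholly above or wholly below the DMSO points. The genes were picked by the size of their change in these same libraries, which in itself favours this.

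A list of 107 tested genes that androgen induces in prostate cells served as a wider reference. Its members were chosen with earlier results of these data known, so that its counts are a description and not independent support. Of these, 44 rose (41.1% against 6.83% of all genes) and 7 fell (6.54% against 6.45%), and in 39 every R1881 library was above every DMSO library, as in 2.3% of all genes. The median of the list was nevertheless only 0.09 on the log2 scale, with quartiles at -0.00 and 0.49, and 56 reference genes did not pass the test. HPGD, which inactivates prostaglandins, rose 5.64-fold, from 6.07, 6.32 and 7.7 CPM to 33, 38.3 and 42.4 CPM (adjusted p = 3.32e-37). ZBTB16, a zinc finger repressor also called PLZF, rose 6.67-fold from 2.81, 3.05 and 4.74 CPM to 15.8, 22.3 and 28 CPM.

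PMEPA1, which dampens TGF-beta signalling, rose 2.07-fold, from a median of 38.7 to 79.9 CPM. TMPRSS2, the membrane protease whose promoter drives ERG in fusion-positive tumours, rose 1.44-fold, from 108, 117 and 124 CPM to 159, 168 and 177 CPM. IGF1R rose 1.19-fold and NCAPD3, a condensin subunit, 1.25-fold, with SEs of 0.0437 and 0.0299 on the log2 scale. SGK1, a kinase that glucocorticoids also induce, ELOVL7, a fatty acid elongase, and EAF2, an elongation factor partner, rose by 0.78, 0.72 and 1.41 on the log2 scale. ABCC4, an exporter of cyclic nucleotides, rose 2.04-fold from a median of 4.81 to 10.1 CPM.

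The 7 falls in the reference list, whose share is that of all genes, were FOLH1, STEAP4, LIFR, GUCY1A3, MAF, SLC38A2 and MERTK. FOLH1 encodes prostate-specific membrane antigen, a target of imaging and radioligands. It was 26.2% lower with R1881, going from 599, 628 and 670 CPM to between 449 and 497 CPM (log2 fold change -0.44, SE 0.0303, adjusted p = 1.12e-17), and every R1881 library was below the lowest DMSO library. STEAP4, a metalloreductase, fell by 0.51 on the log2 scale, and 9 of the 10 R1881 libraries were below the lowest DMSO library, at 18.9 CPM.

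Among genes below the median expression level some folds were far larger. These genes were chosen after their values were seen. CHRNA2, a nicotinic acetylcholine receptor subunit, went from 9 to 24 reads (median 14) in the DMSO libraries to 285 to 473 reads (median 409.5) with R1881, a 27.1-fold rise (log2 fold change 4.76, SE 0.16, adjusted p = 1.24e-31), the largest of all called genes. TRGC1 and TRGC2, constant regions of the T cell receptor gamma locus, had 0 to 4 and 0 to 2 reads per DMSO library and 15 to 26 and 6 to 24 with R1881. Prostate cells are known to transcribe this region as TARP under androgen. The CD3E marker of T cells had at most 1 read in any library. The source of the TRGC1 and TRGC2 reads was not tested. The 2 constant regions are near copies of each other, so that reads between them are uncertain.

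CCDC141, a coiled-coil protein, had 0 or 1 reads in each DMSO library and 5 to 19 with R1881, and CUX2, a homeobox factor, had 0 to 2 and 5 to 18. SLC38A4, an amino acid transporter, had 0 to 3 and 4 to 17. With so few control reads the folds of these genes are poorly set (log2 fold changes 4.26, 3.33 and 3.19 with SEs of 0.481, 0.418 and 0.527), although no library of 1 group overlapped the other. NNMT, which methylates nicotinamide, rose from a median of 5 to 26.5 reads and DDC, the aromatic amino acid decarboxylase, from 3 to 13. ST6GALNAC1, the sialyltransferase of the sialyl-Tn antigen, rose 5.71-fold from 0.75, 0.968 and 1.21 CPM to 4.93, 5.68 and 6.62 CPM.

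Signalling genes were also among the low-level rises. ETS1, an ETS family transcription factor, rose 2.9-fold, P2RY1, a nucleotide receptor, 2.57-fold, and MAOA, the monoamine oxidase that degrades serotonin and noradrenaline, 2.38-fold. WNT7B, HEY1, CXCR4 and FGFR4 rose 2.19-fold, 2.21-fold, 2.15-fold and 2.13-fold, and in each of them every R1881 library was above every DMSO library. VWF, an endothelial marker, rose by 0.96 on the log2 scale at 1.03 CPM in the median DMSO library and 2.18 CPM in the median R1881 library. Of the other endothelial markers, KDR had 2 to 14 reads per library, CDH5 at most 3 and PECAM1 at most 2.

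The kallikrein cluster was not the only block on chromosome 19. From C19orf48 to ZNF528-AS1 (chr19:50797687-52397791), a window chosen after its values were seen, 30 genes were tested, 14 rose and 0 fell (edgeR; 1 was lower at an unadjusted p under 0.05 and 0 by DESeq2). Further along, past the kallikreins, 8 neighbouring zinc finger genes of the KRAB type, whose products mostly repress transcription, rose one after the other. They are ZNF577, ZNF649, ZNF613, ZNF350, ZNF615, ZNF614, ZNF432 and ZNF841, from chr19:51804816 to 52095765. Their log2 fold changes climbed from 0.54 and 0.76 to 0.93 and 0.93 in the middle and came down through 0.67, 0.54 and 0.35 to 0.26.

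ZNF350, which partners with BRCA1, was at 24.7, 26.1 and 30.4 CPM with DMSO and at 46.8, 51.1 and 56.4 CPM with R1881 (1.91-fold, SE 0.0532, adjusted p = 3.5e-21). ZNF613 rose by the same fold, from 25.9, 28.4 and 34.2 CPM to 50.5, 55.9 and 63.9 CPM. In 7 of the 8 genes every R1881 library was above every DMSO library (2.3% of all genes), and in ZNF841 this held for 6 of 10. The nearest tested ZNF genes on either side, ZNF175 and ZNF616, were at -0.17 and 0.10 and did not pass the test, although ZNF616 passed with the GC covariate (0.13).

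Of the 15 tested ZNF genes in the window 8 rose, against 21 of all 499 tested ZNF genes (4.21%), whose median log2 fold change was -0.03. Some of these genes overlap in the annotation (ZNF577 with ZNF649, and ZNF432 with ZNF841), where counts can be shared. At 8 h the same 8 genes were between 0.15 and 0.49 on the log2 scale, with ZNF432 and ZNF841 not called. C19orf48, next to the kallikreins, rose 2.05-fold with a wider spread, from 27.4, 38.3 and 49 CPM to 57.7, 78.1 and 110 CPM.

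**Figure D3:**
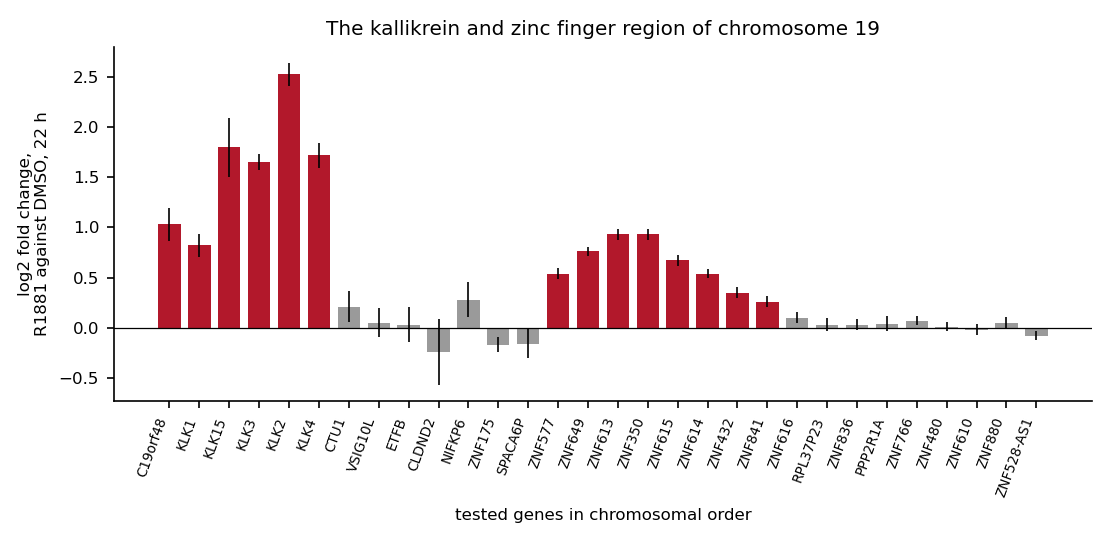
Log2 fold change at 22 h (bars) with SE (lines) for the 30 tested genes of the chromosome 19 window, in chromosomal order, with called rises in red and other genes in grey. A block of C19orf48 and the kallikreins, at 0.82 to 2.53, is followed by genes near 0 and then by 8 zinc finger genes that climb to 0.93 and decline to 0.26.

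Genes of DNA replication rose together at small folds. Of 55 tested genes for DNA replication and S phase, 41 rose and 0 fell (74.5% higher against 6.83% of all genes; 0 were lower by edgeR at an unadjusted p under 0.05 or by DESeq2), with a median log2 fold change of 0.21 and quartiles at 0.15 and 0.26. In 13 of them every R1881 library was above every DMSO library, against 2.3% of all genes.

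MCM4, a subunit of the replicative helicase, was at 156, 168 and 173 CPM with DMSO and at 193, 204 and 214 CPM with R1881, a 1.22-fold rise (SE 0.0255, adjusted p = 2.07e-13). GINS2, another part of that helicase, rose 1.28-fold from 12.8, 13.8 and 14.2 CPM to 15.5, 17.6 and 18.9 CPM. RRM2, the regulated subunit of ribonucleotide reductase, rose 1.2-fold and MCM3 1.16-fold. CDC45, E2F1 and MCM2 rose 1.32-fold, 1.33-fold and 1.27-fold. MCM5 was also called (1.33-fold, SE 0.128 on the log2 scale) but its groups overlapped, and it was no longer called without the libraries at the ends of the GC lean (adjusted p = 0.208).

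Genes of later cycle stages moved less. Of 54 genes for G2 and mitosis 7 rose (13% against 6.83% of all genes), with a median of 0.06. By edgeR, by its unadjusted p or by DESeq2 0 fell (against 6.45%). NCAPH, a condensin subunit, rose by 0.21 on the log2 scale, and MKI67, the proliferation marker, by 0.24 from 177, 208 and 241 CPM to 209, 257 and 268 CPM. With the GC covariate 23 of these 54 genes rose, and in the smaller set of replicates 6 and above, with 2 DMSO libraries, 0 did, while the S phase count went to 47 and 15. Among 43 DNA repair genes 13 rose (30.2% against 6.83% of all genes) and 0 fell by edgeR or DESeq2 (2 were lower at an unadjusted p under 0.05), with PARP1 at 0.18 and RAD54L at 0.37. The cyclin D1 gene CCND1 rose 1.22-fold, E2F7, a repressor of E2F targets, 1.39-fold and CDK2 1.08-fold, whereas CDKN2B, the inhibitor p15, was at -0.34 with overlapping groups. That call was lost without DMSO replicate 3 or 6 or without R1881 replicate 4, with adjusted p = 0.0506, 0.0501 and 0.058.

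MYC, the growth-promoting transcription factor, rose 1.79-fold, from 11.2, 11.9 and 13.5 CPM to 18.5, 21.5 and 24.5 CPM (SE 0.0705, adjusted p = 1.97e-14). Of the 55 genes of its network and of ribosome biogenesis 21 rose (38.2% against 6.83% of all genes) and 1 fell (1.82% against 6.45%), with a median of 0.13. NOP56, DKC1 and NOLC1, factors of small nucleolar ribonucleoproteins, rose 1.2-fold, 1.18-fold and 1.16-fold, each with every R1881 library above every DMSO library. The fall was MYCL, a relative of MYC, from 5.95, 7.7 and 8.57 CPM to 4.43, 5.4 and 5.82 CPM. Of 23 aminoacyl-tRNA synthetases 6 rose (26.1% against 6.83% of all genes), with YARS and DARS at 0.18 and 0.16. By edgeR, by its unadjusted p or by DESeq2 0 fell (against 6.45%).

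**Figure D4:**
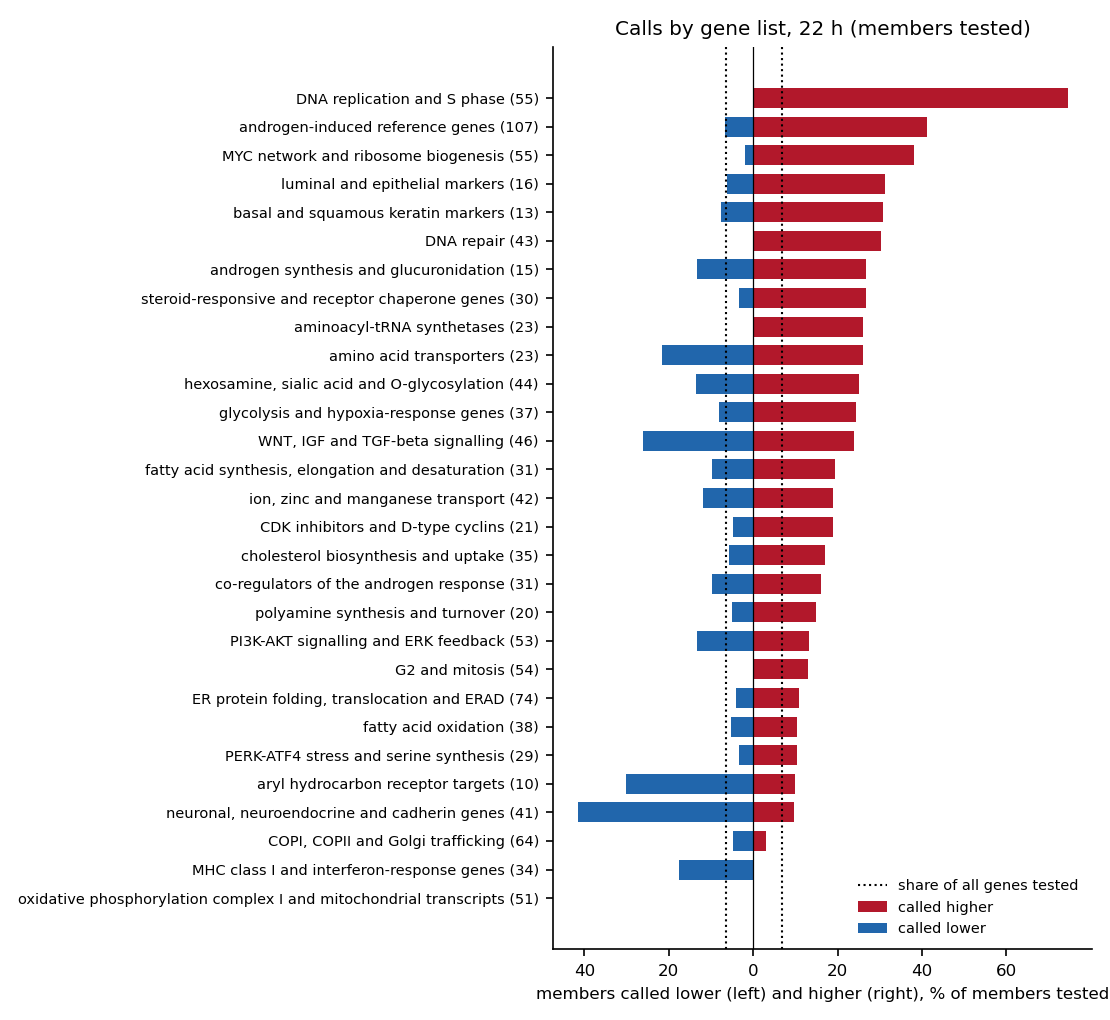
Share of tested members called lower (blue, left) and higher (red, right) with R1881 at 22 h for each list of 10 or more tested genes, in percent, with the number tested in parentheses and dotted lines at the shares over all genes tested (6.45% lower, 6.83% higher). DNA replication and S phase reaches 74.5% higher, and the neuronal, neuroendocrine and cadherin list reaches 41.5% lower. The lists and their members were chosen with earlier results of these data known.

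Steroid glucuronidation genes split. UGT2B enzymes attach glucuronic acid to androgens and so inactivate them. UGT2B28, UGT2B11 and UGT2B10 rose 1.73-fold, 1.64-fold and 1.57-fold, UGT2B28 from 33, 38 and 40.4 CPM to 58.7, 64.1 and 68 CPM. UGT2B15, known as an androgen-repressed gene in prostate cancer cells, fell by 0.69 on the log2 scale from 18.6, 21.9 and 23.5 CPM to 12.2, 12.9 and 15.9 CPM, and UGT2B17 fell by 0.60. None of the 5 genes had overlapping groups. These enzymes share long stretches of sequence, so that the counts of each are uncertain.

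Glycosylation genes split too, with 11 rises and 6 falls of 44 tested (25% and 13.6%, against 6.83% and 6.45% of all genes). Beside ST6GALNAC1, the rises included UAP1, which makes UDP-GlcNAc, at 0.24. ST3GAL1, a sialyltransferase that caps O-glycans, fell by 0.52, from 228, 247 and 252 CPM to 155, 172 and 180 CPM, and FUT8, which adds core fucose, fell by 0.46. The folding and trafficking lists of the secretory pathway stayed closer to the shares over all genes. Of 74 genes for folding in the endoplasmic reticulum 8 rose (10.8%) and 3 fell (4.05%), with a median of 0.01. Of 64 for COPI, COPII and Golgi trafficking 2 rose (3.12%) and 3 fell (4.69%), with a median of -0.01.

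Most metabolic lists held a larger share of rises than all genes. Protein-coding genes as a whole did too, with 1115 rises among 12468 tested. Of 35 cholesterol genes 6 rose (17.1% against 6.83% of all genes) and 2 fell (5.71% against 6.45%). ABCA1, a cholesterol exporter, fell by 0.20. ACACA and ELOVL5, enzymes of fatty acid synthesis and elongation, rose 1.24-fold and 1.22-fold, and ACSL1, which activates long-chain fatty acids, fell by 0.22 with every R1881 library below every DMSO library. HK2, hexokinase 2, rose 1.28-fold without overlap, and ADM, a hypoxia-induced peptide gene, fell by 0.64. They belong to 37 glycolysis and hypoxia genes, of which 9 rose (24.3%) and 3 fell (8.11%). Of 38 fatty acid oxidation genes 4 rose (10.5%) and 2 fell, and of 29 genes of the PERK-ATF4 stress response and serine synthesis 3 rose (10.3%) and 1 fell, both closer to the share over all genes. Of 51 genes for respiratory complex I and mitochondrial transcripts 0 were called in either direction by edgeR, by its unadjusted p or by DESeq2.

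Ion, zinc and manganese transport genes gave 8 rises and 5 falls of 42 (19% and 11.9%, against 6.83% and 6.45% of all genes). The metalloreductases STEAP1 and STEAP2, neighbours on chromosome 7, rose 1.62-fold and 1.69-fold, in contrast to STEAP4. SLC30A4, a zinc exporter, rose 1.49-fold from 65.3, 73.1 and 86.6 CPM to 106, 111 and 127 CPM, and SLC39A8, a zinc and manganese importer, 1.41-fold. SLC30A10, a manganese exporter, fell from 43 to 53 reads per library with DMSO to 13 to 23 with R1881, a fall by 1.36 on the log2 scale. SLC7A1, a carrier of cationic amino acids, rose 1.61-fold, among 6 rises and 5 falls of 23 amino acid transporters (26.1% and 21.7%).

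The falls above the median expression level were smaller than the rises. The 12 largest were LRRC31, CA10, PCDH19, FAM46A, VCAN, PABPC5, PCDH10, MMP16, GRIA2, IGFBP5, RFX3 and SLC35F1, from 41.7% to 33.6% lower with R1881. In all 12 every R1881 library was below every DMSO library, as in 1.54% of all genes, which their choice by size in these same libraries favours. LRRC31, a leucine-rich repeat protein, went from 35.7, 39.7 and 42.6 CPM to 20.7, 22.6 and 25.5 CPM (log2 fold change -0.78, SE 0.0403, adjusted p = 6.37e-23).

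IGFBP5 (chr2:216672105-216695549), a secreted protein that binds insulin-like growth factors, went from 1840, 1990 and 2060 CPM to 1190, 1310 and 1430 CPM (log2 fold change -0.61, SE 0.0315, adjusted p = 5.43e-23). VCAN, the matrix proteoglycan versican, went from 115, 125 and 139 CPM to 68.7, 79.4 and 88.9 CPM. MMP16, a membrane-bound matrix metalloproteinase, and FAM46A, a non-canonical poly(A) polymerase, were 36.6% and 38.6% lower. RFX3, a factor of ciliated cells, was 33.7% lower.

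Falls were frequent among neuronal and adhesion genes. Of 41 tested neuronal, neuroendocrine and cadherin genes 17 fell (41.5% against 6.45% of all genes) and 4 rose (9.76% against 6.83%), with a median of -0.13. In 9 of them every R1881 library was below every DMSO library, against 1.54% of all genes. Protocadherins are cell adhesion molecules that neurons use for recognition. PCDH19 went from 111, 113 and 139 CPM to 68.6, 73 and 79.4 CPM, and PCDH10 from 52.3, 56.5 and 59.4 CPM to 30.5, 35.4 and 41.5 CPM. PCDH9, PCDH7, PCDH15, PCDH11X and PCDH18 fell as well, by 0.46, 0.22, 0.36, 0.40 and 0.32 on the log2 scale, while PCDH17 rose by 0.18.

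CA10, a brain protein related to carbonic anhydrases, was 40.4% lower, and GRIA2, an AMPA receptor subunit, 34.7%. SLITRK6 fell by 0.66, from 15.3, 17.2 and 19.8 CPM to 9.41, 11 and 12.9 CPM. The rises were NRXN3, a presynaptic adhesion protein, at 0.50, DDC, PCDH17 and EPHA3. All libraries came from starved cells, so that levels raised by starvation in the controls and levels lowered below the usual by R1881 cannot be told apart.

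Secreted signals and their antagonists changed both ways. Of 46 genes for WNT, IGF and TGF-beta signalling 11 rose and 12 fell (23.9% and 26.1%, against 6.83% and 6.45% of all genes). WNT5A, a non-canonical WNT ligand, fell by 0.43 from 157, 166 and 185 CPM to 115, 125 and 138 CPM, and BAMBI, a decoy receptor for TGF-beta family ligands, fell by 0.50. The ligand genes INHBA, TGFB2 and BMP2 fell by 0.81, 0.52 and 0.94, whereas TGFBR3, the co-receptor betaglycan, rose 1.34-fold. INPP4B, a phosphatase that restrains AKT, rose 1.48-fold from a median of 20.1 to 30.8 CPM, and DUSP6, a feedback phosphatase of ERK, fell by 0.42. Of the 53 genes of AKT and ERK signalling 7 rose and 7 fell (13.2% each).

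Low-expressed genes gave the deepest falls, and these were chosen after their values were seen. SCNN1G, a subunit of the epithelial sodium channel, had 89 to 111 reads per library with DMSO and 24 to 41 with R1881, 66.8% lower (log2 fold change -1.59, SE 0.101, adjusted p = 3.4e-19). ANXA1, a lipid-binding protein that glucocorticoids are known for inducing, went from 16.9, 18.5 and 21.6 CPM to 7.1, 8.28 and 9.09 CPM (55.5% lower, adjusted p = 1.11e-24), and MMP10, the protease stromelysin-2, from 20, 24.7 and 29.6 CPM to 9.63, 11.1 and 12.5 CPM. AFF2 and the lncRNA CASC16 had the largest negative folds beside SCNN1G, -1.55 and -1.83, at median DMSO reads of 22 and 7. LUM, a proteoglycan of fibroblasts, fell by 1.01 from 3.41, 4.04 and 4.66 CPM to 1.62, 1.97 and 2.47 CPM. Of the other fibroblast markers, COL1A1 had 4 to 24 reads per library, DCN at most 7, and COL1A2 and COL3A1 at most 2.

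Interferon genes were lower where they were called. Of 34 MHC class I and interferon-response genes 6 fell (17.6% against 6.45% of all genes) and 0 rose (against 6.83%) by edgeR, by its unadjusted p or by DESeq2. IRF1, an interferon-induced transcription factor, fell by 0.48 from 4.72, 5.75 and 7.09 CPM to 3.53, 4.05 and 4.78 CPM, with 7 of 10 R1881 libraries below the lowest DMSO library. IFI44 fell by 0.25, from a median of 41.6 to 35.4 CPM.

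Some basal markers rose. Of 13 basal and squamous markers 4 rose (30.8% against 6.83% of all genes) and 8 did not pass the test. The 1 fall was DST (7.69% against 6.45%), and the median was 0.42. Beside KRT15, its neighbours KRT19, a luminal keratin, and KRT13 rose by 0.76 and 0.72, and LAMA3, a laminin chain of hemidesmosomes, rose 1.73-fold from 19.6, 20.3 and 22.6 CPM to 32.6, 35.8 and 39.6 CPM. KRT19 spread widely, from 240, 326 and 391 CPM to 386, 544 and 665 CPM. NGFR rose by 0.64 with overlapping groups. NGFR and KRT13 were no longer called without the libraries at the ends of the GC lean (adjusted p = 0.0677 and 0.0937). KRT5 and KRT14 were at medians of 0.725 and 0.523 CPM with DMSO and 0.854 and 0.8 CPM with R1881, and TP63 did not pass the filter.

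Most transcription factors and cofactors of the androgen response moved little. FOXA1, the pioneer factor of the luminal prostate, fell by 0.15 from 1040, 1070 and 1110 CPM to 942, 972 and 1010 CPM, and no library overlapped (SE 0.0196, adjusted p = 3.45e-08). MED1, a Mediator subunit that binds nuclear receptors, was level at a median of 149 CPM in both groups (adjusted p = 0.983), with an SE of 0.0481. HOXB13, a homeobox factor of the prostate lineage, was at -0.12 with an SE of 0.0758 and did not pass the test, but did with the GC covariate (-0.18).

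Of the 31 tested factors and co-regulators of the androgen response 5 rose (16.1% against 6.83% of all genes). A further 3 fell (9.68% against 6.45%), and the median was -0.00. The rises included SOX9 at 0.30, EHF at 0.27 and the corepressor NCOR1 at 0.11, whose groups overlapped and whose call was lost without any 1 of 9 libraries (adjusted p up to 0.112). The falls were FOXA1 and the orphan receptors NR2F2 and NR2F1 at -0.27 and -0.39. NR2F2 was below the lowest DMSO library in every R1881 library, from 82.1, 82.7 and 86.5 CPM to 66.1, 69.2 and 72.5 CPM.

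The genes called at 8 h were nearly all called again at 22 h. At 8 h, with 10 libraries each, 481 genes were called (2.64%), 429 of them also at 22 h, all of these 429 in the same direction. The 8 h and 22 h groups share no libraries. The difference of the R1881 effect between 22 h and 8 h was itself called in 584 genes (3.21%), 320 of which had risen at 22 h and 249 had fallen. In 319 of the 320 and in all 249 the effect was larger at 22 h. These genes were picked by their call at 22 h, which in itself favours a larger effect at that time. Genes that differed without a call at 22 h are not counted here.

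Among the called genes above the median expression level KLK4, KRT15, FSTL1 and C19orf48 gained most. KLK4 was at 0.66 at 8 h and at 1.72 at 22 h, a difference of 1.06 (SE 0.169, adjusted p = 1.62e-05), and KRT15 was at 0.17 and 1.10 (difference 0.93, SE 0.114, adjusted p = 4.52e-08). C1orf116 had most of its rise at 8 h, with 1.28 at 8 h and 1.68 at 22 h. Among the falls above that level, GRIA2, LRRC31, MMP16 and CA10 gained most, GRIA2 from -0.06 to -0.61 (adjusted p = 2.69e-09).

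DNA replication genes differed between the time points. At 8 h 0 of the 55 were called (edgeR; 1 at an unadjusted p under 0.05, 0 by DESeq2), with a median of -0.01. The difference between the time points was called in 28 of them, as in 3.21% of all genes. MCM4 was at -0.01 at 8 h and at 0.28 at 22 h (adjusted p of the difference 1.46e-08). In the reference list 32 of 107 genes were already called at 8 h, and in the neuronal list 10 of 41, against 2.64% of all genes.

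**Figure D5:**
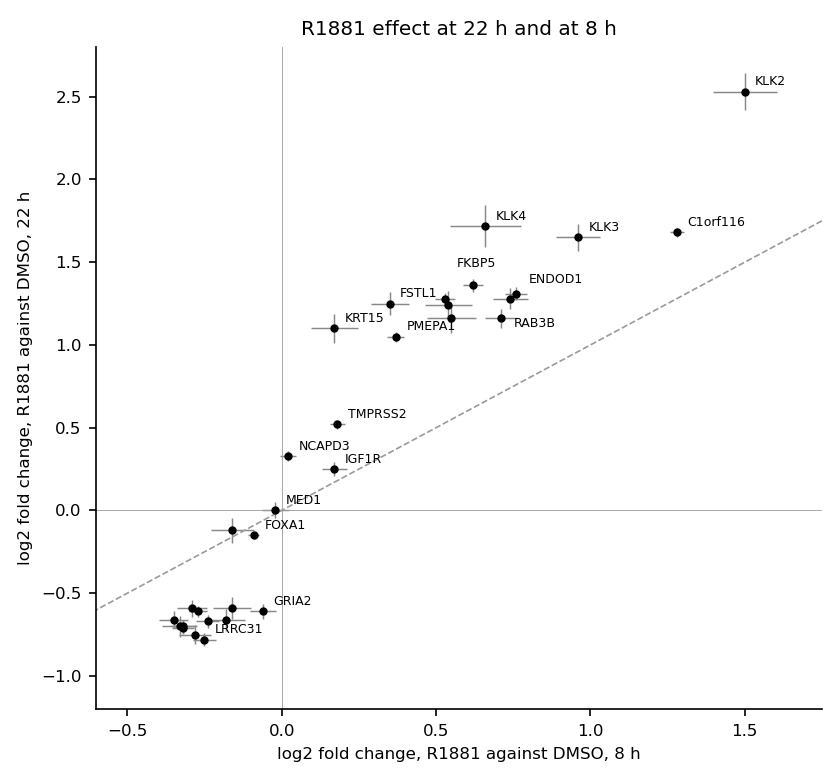
Log2 fold change of R1881 against DMSO at 22 h (vertical axis) against that at 8 h (horizontal axis) for the 12 largest rises, the 12 largest falls and the cofactor and target genes named by rule, with SEs as error bars and a dashed line of equal change. The rises lie above the line and the 12 falls below it, and KLK2 stands at 1.50 at 8 h and 2.53 at 22 h. The 12 rises and 12 falls were picked by their size at 22 h, which in itself favours these positions.

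VCaP responded far more widely to the same dose. In a fit of both lines at 22 h, with 16578 genes, 12885 were called in VCaP (77.7%) and 1948 in LAPC4. The R1881 effect differed between the lines in 68.7%. Of the 1695 genes called in both lines 1084 changed in the same direction and 611 in opposite directions. Of the former, 771 had a larger effect in VCaP and 40 in LAPC4 by the test of the difference. NCAPD3 was at 0.31 in LAPC4 and 5.64 in VCaP in this fit, and TMPRSS2 at 0.50 and 4.68.

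Among genes called in opposite directions, STEAP4, ZNF385B, AGR2 and ST7 had the smallest p for the difference. STEAP4 was at -0.53 in LAPC4 and 6.99 in VCaP (difference -7.52, SE 0.0858), and ZNF385B, a zinc finger protein, at 0.89 and -2.87. In LAPC4 ZNF385B rose from 14.6, 16.1 and 17.5 CPM to 28.1, 29.5 and 34.4 CPM. MYC was at 0.82 in LAPC4 and -2.63 in VCaP (difference 3.45, SE 0.0816). A further 205 genes called in LAPC4 were not tested in VCaP, where they did not pass the filter on low counts, among them PCDH10, VCAN, MMP16, CA10 and KLK1.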

How the data were processed

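RNA was measured by polyA RNA-seq in 112 libraries of VCaP and LAPC4 cells, and the 57 LAPC4 libraries, 17 of them the groups compared, were used here, with the 17 VCaP libraries of the same treatments and time for the comparison of lines. The values are read counts per gene as deposited by the authors in 1 table of 58684 gene symbols. They aligned single-end reads with STAR to GRCh38 and counted them with featureCounts of Subread, after demultiplexing with bcl2fastq 2.17 per the processing notes. Other versions, the annotation and the strand setting are not given in the sources used here, so the values of genes that overlap, lie antisense or resemble a copy are less sure.

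The filter on low counts asked for 10 or more reads in 4 or more LAPC4 libraries, which 18204 genes passed. The counts were fitted with edgeR 4.0.16 (TMM scaling, glmQLFit and glmQLFTest, R 4.3.3) over all LAPC4 libraries in 8 groups, and R1881 was compared with DMSO at 22 h, at 8 h and by the difference of both effects. LAPC4 and VCaP were compared in a fit of their 34 libraries of DMSO and R1881 at 22 h (16578 genes). A gene was called at a Benjamini-Hochberg adjusted p under 0.05 over all genes of the fit. Every adjusted p printed is from these edgeR fits unless another setting is named. SEs are of the log2 fold change and were taken as its size divided by the root of F. CPM were computed from TMM-scaled totals, and log2 CPM used a prior count of 2. The tests were tried on simulated counts. Alternatives were DESeq2 1.42.0, other scalings and filters, a GC covariate, a replicate block, subsets of the replicates and leaving out each library. Libraries at 22 h held 15874797 to 23180161 counted reads, and any pair within a group differed by more than sampling noise (chi-square per degree of freedom 1.96 to 25.3), so that precision rests on the spread between libraries as well as on depth.

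The genes named by rule were the 12 largest rises and falls above the median expression, up to 4 called members of each list with the smallest adjusted p, 12 reference genes, 8 genes with the largest difference between time points among called genes above the median expression and 4 of opposite direction in VCaP. A few of these genes are not reported here. All other genes named were chosen after their values were seen. The members and lists were chosen with earlier results of these data known. Gene positions are from GENCODE 44 on GRCh38, and promoters, the 250 bases before a RefSeq start, are from GRCh38.p14.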

Additional observations from a re-analysis of the deposited data

Results flagged for a closer look

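In 12 of 308 sets of a gene or library measure in 1 group, the highest or lowest library stood apart from the rest by Dixon's criterion, where chance would give about 1 in 20 sets, or 15.4. Of these, 5 came from DMSO replicate 7. On the log2 CPM scale it was at 5.79 for ENDOD1, 4.25 for STEAP4, 5.39 for ZNF614 and 2.21 for ALDH1A3, all below the other DMSO libraries, and at 3.76 for MYC, above them. PARP1 was at 9.09 in DMSO replicate 1, below the next library at 9.14. With R1881, MSMB was at -1.05 and KRT13 at -1.2 in replicate 8, CHRNA2 at 4.01 in replicate 9, CCDC141 at -1.27 in replicate 5 and SCNN1G at 1.2 in replicate 1. All were the lowest of their group except SCNN1G, which was the highest. The mitochondrial share was 1.917% in R1881 replicate 9, the highest of its group.

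The R1881 effect differed between 22 h and 8 h, by the test of the difference, in 8 genes named for it. The difference was 1.06 on the log2 scale for KLK4, 0.93 for KRT15, 0.9 for FSTL1 and 0.81 for C19orf48, and -0.55 for GRIA2, -0.52 for LRRC31, -0.48 for MMP16 and -0.47 for CA10. In each of them the effect was larger at 22 h, which their choice among genes called at 22 h favours. Between the lines, the effect in LAPC4 minus that in VCaP was -7.52 for STEAP4, -4.05 for AGR2, 3.76 for ZNF385B and 2.91 for ST7, each with opposite signs in the lines.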

How the results depend on the processing

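The 2418 genes called at 22 h became 4065 with the GC covariate, 863 with replicates 6 and above alone (2 DMSO and 5 R1881 libraries) and 403 in a test against a log2 fold change of 0.25, and stayed within 1.5 times under the other settings, with 2336 by DESeq2. Scaling by totals alone gave 1078 rises and 1323 falls, in place of 1244 and 1174. The 96 genes past a log2 fold change of 1 became 148 without a filter on low counts. The 584 genes that differed between 22 h and 8 h became 386 without that filter, 1531 with the GC covariate, 275 with the first 5 replicates and 154 with the later ones. Leaving out 1 library gave 2082 to 2458 calls at 22 h, 88 to 105 past 1, 520 to 621 between times and 11244 to 11433 between lines.

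With replicate number as a block 2602 genes were called, 1643 higher and 959 lower. The numbers did not pair the libraries. Over 7 pairs the correlation of deviations ran from -0.206 to 0.37, was above 0.1 in 3, and 2 DMSO libraries were nearest to their own number. MSMB (-0.56, adjusted p = 0.0761) and CDCA8 (0.12, adjusted p = 0.0855) lost their call with the block.

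Of the list counts, S phase rises went from 41 to 15 with replicates 6 and above, MYC and ribosome rises from 21 to 37 with the GC covariate and 8 with replicates 6 and above, and DNA repair rises from 13 to 21 and 2. Mitosis rises went from 7 to 4 without the filter, 12 with replicates 1 to 5, and 23 and 0 as given above. Over 150 named genes 4228 of 4349 alternative values kept direction and call, 105 lost the call, 4 gained it and 12 changed sign. The last were all MED1 (-0.00), at 0.00 with filterByExpr, 0.01 with the block, 0.03 with the GC covariate and replicates 1 to 5, 0.04 with replicates 6 and above, 0.05 without the libraries at the ends of the GC lean, and -0.04 to 0.03 over the fits with 1 library left out. MCM5, MAD2L1, CDKN2B and NCOR1 lost their call without 1 of the libraries. Depth limits genes with few control reads, such as CCDC141, CUX2 and SLC38A4 with SEs of 0.481, 0.418 and 0.527. The causes were not tested.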
